A study of Mus musculus with 6 samples.

Results

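Expression of 7 genes of intestinal sterol uptake and efflux (Npc1l1, Scarb1, Abcg5, Abcg8, Abca1, Soat2 and Nr1h3) was examined in mouse small intestinal organoids treated with MMK-1. The genes were chosen by name for their roles in sterol handling, with earlier results of these data known. All 7 were found among the 21397 genes of the expression table. RNA was sequenced from organoids grown from small intestinal crypts of Fpr2f/f mice, whose Fpr2 allele is flanked by loxP sites and for which no Cre is named, so that both groups carried the same allele. MMK-1, a synthetic peptide agonist of a G protein-coupled receptor, was given at 1 μmol/L for 5 days, and the control received the vehicle, 0.1% DMSO, for the same time. There were 3 libraries per group, and the study states that each sample held organoids from 3 mice, so single animals cannot be followed. In the treatment label the dose of MMK-1 is 1 mM, whereas the protocol text and the methods give 1 μmol/L, and the latter was taken as the dose. Mice in the study were young adults matched for age and sex.

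In the absorptive cells of the small intestine, NPC1L1 at the brush border takes up cholesterol from the lumen, and the paired half-transporters ABCG5 and ABCG8 pump sterols, plant sterols above all, back into it. Cholesterol that stays in the cell is esterified by SOAT2 and packed into chylomicrons, or leaves across the basolateral membrane through ABCA1 onto nascent high-density lipoprotein, and SR-BI, the product of Scarb1, exchanges cholesterol with lipoproteins and micelles. NR1H3 (liver X receptor α, LXRα) is a nuclear receptor for oxysterols that, with its partner RXR, activates Abca1, Abcg5 and Abcg8.

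Sequence ahead of the genes was read from a table of RefSeq promoter windows on GRCm38.p6, in which 5 of the 7 genes were matched. Those of Scarb1 and Soat2 were not used here. The 2 stretches shown are the interval shared by Abcg5 and Abcg8, which moved together, and the stretch ahead of Abca1, which had the smallest change. In RefSeq, Abcg5 and Abcg8 lie head to head on chromosome 17, with starts at 84683011 on the minus strand and 84683121 on the plus strand, 110 bases apart, so that a single short interval precedes both. Capitals mark TTATCT, the reverse complement of the GATA motif AGATAA, in the interval between them (chr17:84683012-84683120, plus strand), and a loose match to DR4, the element bound by LXR with RXR, ahead of Abca1 (chr4:53159896-53160145, minus strand).

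Abcg5 and Abcg8 interval: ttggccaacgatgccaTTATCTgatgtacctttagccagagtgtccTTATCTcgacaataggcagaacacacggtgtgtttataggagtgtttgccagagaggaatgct

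Abca1: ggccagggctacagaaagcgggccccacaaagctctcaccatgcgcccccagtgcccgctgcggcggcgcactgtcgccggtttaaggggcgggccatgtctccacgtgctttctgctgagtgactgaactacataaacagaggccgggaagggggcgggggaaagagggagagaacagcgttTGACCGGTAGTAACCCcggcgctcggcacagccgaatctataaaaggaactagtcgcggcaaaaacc

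Motifs were searched on both strands in windows from 250 bases before to 50 bases after a start, and 32851 such windows from all genes served as background. DR4 was the only motif planned, and AGATAA and ATTAAC were added to the search. AGATAA was found in 11.2% of all windows, and among the 5 genes in those of Abcg5 and Abcg8, whose windows overlap and share these matches. ATTAAC was found in 7.1% of all windows, and among the 5 genes in that of Npc1l1, where it begins 40 bases before the start. DR4, 2 copies of AGGTCA in the same orientation with 4 bases between them, was found with at most 2 mismatches in 3.02% of all windows and in none of the 7 windows of the 5 genes. With 3 mismatches, a limit chosen after the letters were seen, 21.9% of all windows held a match, and the match of Abca1 begins 67 bases before its start. The DR4 and AGATAA matches do not overlap each other, and all of these matches describe letters, not bound sites.

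Values are FPKM, the fragments of a gene scaled by its length and by the library total, and comparisons of level between genes rest on the gene lengths that the authors used. The libraries held 35512739 to 37537463 fragments. MMK-1 replicate 3 stood apart from the other MMK-1 libraries. Over the genes tested, its root mean square difference from them on log2(FPKM + 1) was 0.201 and 0.191, against 0.103 between MMK-1 replicates 1 and 2 and 0.0981 to 0.114 between control libraries. Control and MMK-1 libraries differed by 0.558 to 0.59. Differences were tested with limma on log2(FPKM + 1) over 10551 genes whose mean FPKM reached 1, all 7 sterol genes among them. Genes were called where p, adjusted by Benjamini-Hochberg, did not exceed 0.05, and a separate call required a fold change of at least 2 with an unadjusted p of at most 0.05.

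With MMK-1, 6 of the 7 genes fell and Abca1 alone was not called. Npc1l1, Abcg5, Abcg8, Scarb1, Soat2 and Nr1h3 fell to between 47.0% and 66.9% of their control means, and none of the 7 rose. Of all genes tested, 24.7% were lower and 48.5% were higher at the same adjusted p in the limma test. Only Npc1l1 passed the call with a fold change of at least 2, which 3.65% of all genes passed in the lower and 3.39% in the higher direction. The values of the 6 genes did not overlap between the groups, as was the case for 26.3% of all genes in the lower direction and 50.5% in the higher. The median log2 fold change of the 7 genes was -0.72, whereas the 10551 genes had a median of 0.13. With upper-quartile scaling this last median became 0.03 and all calls split into 4032 higher and 3589 lower, against 5118 and 2606 as deposited, and removal of a trend on GC content moved them to -0.01 and to 3713 and 4002. All 6 genes kept their call and direction under each of the 14 alternatives, leaving out any single library included.

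Npc1l1, the brush border transporter through which dietary and biliary cholesterol enters the enterocyte and the target of ezetimibe, had the highest level of the 7 genes in control organoids. It lies on chr11:6211013-6230143, minus strand (GRCm38). Its FPKM was 243.2, 246.1 and 242.6 in control and 110.3, 114.3 and 119.1 with MMK-1. All MMK-1 values were below all control values, and both groups were tight, with standard deviations of 1.85 and 4.41. The mean fell from 244 to 115, to 47.0% of control, or 2.13-fold. On the log2 scale the change was -1.08 (SE 0.0402, 95% interval -1.18 to -0.99, limma adjusted p = 7.6e-08). Of all genes tested, 3.02% had a log2 fold change at or below that of Npc1l1. In fragments, 41638, 42222 and 41456 fell on Npc1l1 in control and 17910, 18767 and 20227 with MMK-1, so counting error was small beside this difference.

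Scarb1 (chr5:125277087-125341094, minus strand) encodes the scavenger receptor SR-BI, which binds high-density lipoprotein and lies on both faces of the enterocyte. In control it was at 114.2, 115.7 and 115.9 FPKM, and with MMK-1 at 66.6, 67.4 and 74.8. The groups were well apart, and MMK-1 replicate 3 was the highest of its group by more than the other MMK-1 libraries differed. The mean fell to 60.4% of control, from 115 ± 0.934 to 69.6 ± 4.54 (SD, n = 3 per group, the same for all such values here). The log2 fold change was -0.72 (SE 0.0499, 95% interval -0.84 to -0.61, limma adjusted p = 2.8e-06).

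The genes of the apical efflux pump, whose products act only as a heterodimer and whose loss causes sitosterolaemia, fell side by side. Abcg5 (chr17:84658234-84683011, minus strand) was at 216.9, 214.0 and 216.1 FPKM in control and at 117.3, 118.9 and 124.8 with MMK-1. Abcg8 (chr17:84676302-84700333, plus strand) was at 121.3, 122.3 and 123.9 FPKM in control and at 62.8, 62.6 and 68.0 with MMK-1. Neither gene overlapped between groups, and replicate 3 was again the highest MMK-1 library for both. Abcg5 fell to 55.8% of control, with a log2 fold change of -0.84 (SE 0.0385, 95% interval -0.92 to -0.75, limma adjusted p = 2.5e-07). Abcg8 fell to 52.6%, with a log2 fold change of -0.92 (SE 0.0435, 95% interval -1.02 to -0.82, limma adjusted p = 3e-07). GENCODE starts Abcg8 at 84676302, inside Abcg5 and upstream of its RefSeq start, so that in GENCODE the gene bodies overlap on opposite strands, and whether counting used strand is not given in the sources used here, so reads in the overlap cannot be assigned with certainty.

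The ratio of Abcg5 to Abcg8 FPKM, both corrected for length, was 1.79, 1.75 and 1.74 in control and 1.87, 1.90 and 1.84 with MMK-1. Its mean went from 1.76 ± 0.0246 to 1.87 ± 0.0326, a small shift beside the fall of both levels, although its MMK-1 values were all above its control values. Abcg5 to Npc1l1 was 0.892, 0.870 and 0.891 in control and 1.06, 1.04 and 1.05 with MMK-1. Whether Abcg5 lay above Npc1l1 after treatment depended on gene length, since with GENCODE exon lengths, an alternative chosen after seeing the data, the mean ratio was 0.768 in control and 0.913 with MMK-1. This ratio and those of Scarb1 to Abcg8, Soat2 to Soat1 and Nr1h3 to Nr1h2 were chosen after their values were seen, and are given without a test.

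**Figure D1:**
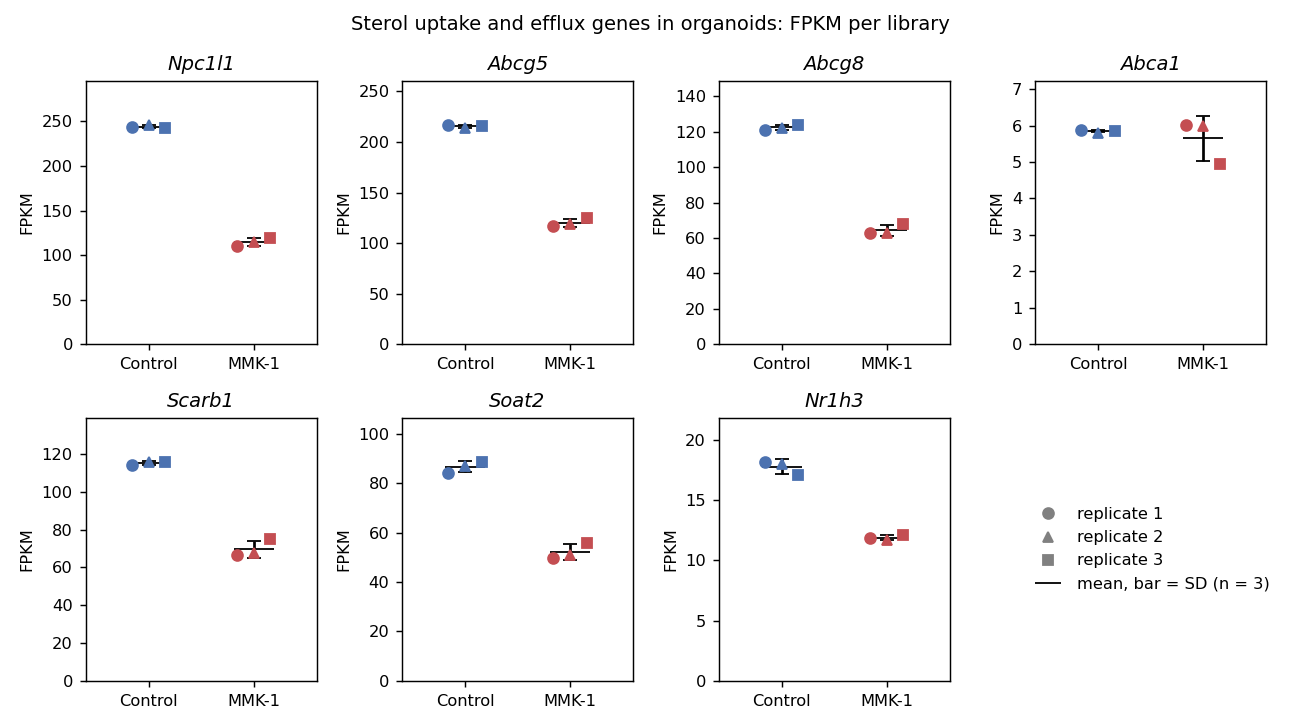
FPKM of the 7 genes in each of the 3 control (blue) and 3 MMK-1 (red) libraries, 1 panel per gene on a linear axis from 0, with 1 point per library and bars for the mean and SD. The MMK-1 points lie below all control points for 6 genes, from Npc1l1 (244 to 115 on average) to Nr1h3 (17.8 to 11.9), and overlap for Abca1.

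Abca1 (chr4:53030787-53159895, minus strand), the basolateral exporter of cholesterol to apolipoprotein A-I, had the lowest level of the 7 genes and was not called. Its FPKM was 5.87, 5.81 and 5.85 in control and 6.02, 5.99 and 4.94 with MMK-1. Of the MMK-1 libraries, 2 lay above all control values and replicate 3 lay below them, so the groups overlapped. The log2 fold change was -0.05 (SE 0.0695, 95% interval -0.20 to 0.11, limma adjusted p = 0.566), and the exact two-sided permutation p was 1. With upper-quartile scaling the groups no longer overlapped, the log2 fold change was -0.15 (limma adjusted p = 0.111) and the exact permutation p was 0.1, the smallest possible. Without MMK-1 replicate 3 the log2 fold change of the deposited values was 0.03 (limma adjusted p = 0.472). The interval excludes a fall of the size of any of the other 6 genes, since the smallest of these was 0.54 on the same scale. Between 1914 and 2295 fragments fell on Abca1 in each library, and the source of its spread in the MMK-1 group was not tested.

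Soat2 (chr15:102150526-102163469, plus strand), the acyltransferase that esterifies absorbed cholesterol in the enterocyte, was at 84.2, 86.8 and 88.7 FPKM in control and at 49.7, 50.8 and 55.9 with MMK-1. The groups did not overlap. The mean fell from 86.6 ± 2.26 to 52.1 ± 3.33, or to 60.2% of control, with a log2 fold change of -0.72 (SE 0.0515, 95% interval -0.84 to -0.61, limma adjusted p = 3.3e-06). Its paralog Soat1, the broadly expressed acyltransferase, moved the other way. Soat1 was at 27.8, 26.9 and 26.3 FPKM in control and at 44.6, 44.2 and 44.8 with MMK-1, and rose by a log2 fold change of 0.70 (SE 0.0394, limma adjusted p = 8.1e-07). The Soat2 to Soat1 ratio was accordingly 3.02, 3.22 and 3.37 in control and 1.11, 1.15 and 1.25 with MMK-1, and with GENCODE exon lengths its mean was 6.27 in control and 2.29 with MMK-1.

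Nr1h3 (chr2:91184061-91202834, minus strand), which encodes LXRα, was at 18.2, 18.0 and 17.1 FPKM in control and at 11.8, 11.7 and 12.1 with MMK-1. Groups were again separate. From 17.8 ± 0.61 the mean fell to 11.9 ± 0.222, or to 66.9% of control, with a log2 fold change of -0.54 (SE 0.0441, 95% interval -0.64 to -0.44, limma adjusted p = 7.4e-06). Nr1h2, which encodes the ubiquitous LXRβ, was at 22.6, 23.5 and 22.8 FPKM in control and at 19.8, 19.4 and 21.5 with MMK-1. Its log2 fold change of -0.17 (SE 0.0488, limma adjusted p = 0.011) was smaller, and without control replicate 2 it was no longer called. The Nr1h3 to Nr1h2 ratio was 0.805, 0.768 and 0.749 in control and 0.596, 0.602 and 0.564 with MMK-1.

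The exact two-sided permutation p of each of the 6 falling genes was 0.1, the smallest that 3 libraries against 3 allow. The study describes its data in general as coming from independent experiments, but no source says whether these 3 libraries per group came from separate cultures, so p-values here measure the spread between the libraries, which may be technical. Of the 6 falls, that of Npc1l1 was the largest and that of Nr1h3 the smallest. The 95% interval of Npc1l1 did not reach those of Abcg5, Scarb1, Soat2 and Nr1h3 and overlapped that of Abcg8, and those of Scarb1 and Soat2 coincided. These differences between genes were not tested. Adding 1 to FPKM understates changes of low genes, and with a pseudocount of 0.1 the largest and smallest falls were still those of Npc1l1 and Nr1h3.

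**Figure D2:**
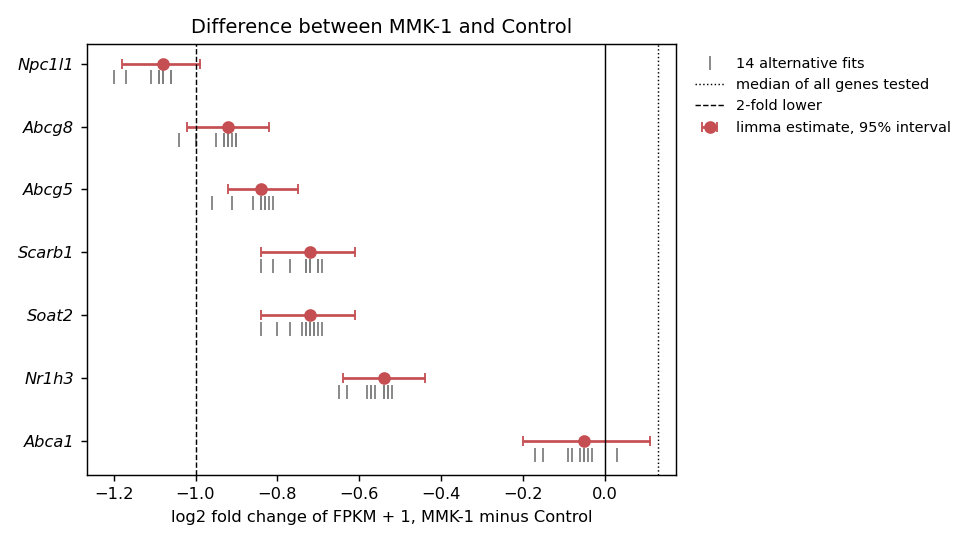
Log2 fold change (MMK-1 minus control, log2(FPKM + 1)) of the 7 genes with 95% intervals from limma in red and each of the 14 alternative fits as a grey tick, and with lines at 0, at 2-fold lower and at the median of all genes tested (0.13). Intervals of 6 genes lie below 0, from -1.08 for Npc1l1 to -0.54 for Nr1h3, and that of Abca1 (-0.20 to 0.11) includes it.

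Control levels ran in the order Npc1l1, Abcg5, Abcg8, Scarb1, Soat2, Nr1h3 and Abca1. Neighbours in this order were separate in every control library, the closest being Abcg8 and Scarb1, whose lowest and highest values were 121.3 and 115.9 FPKM. With MMK-1 the order became Abcg5, Npc1l1, Scarb1, Abcg8, Soat2, Nr1h3 and Abca1, and 2 of the 6 pairs of neighbours overlapped. MMK-1 values of Abcg5 (117.3 to 124.8) overlapped those of Npc1l1 (110.3 to 119.1), and values of Scarb1 (66.6 to 74.8) overlapped those of Abcg8 (62.6 to 68.0). The other neighbours stayed separate, and within each MMK-1 library the order held. Scarb1 to Abcg8 was 0.942, 0.946 and 0.936 in control and 1.06, 1.08 and 1.10 with MMK-1. This order rests on the lengths implied by the deposited values, which for Scarb1 was 4137 bases, against 8500 bases of exons in GENCODE. With GENCODE exon lengths the mean levels ran in the order Npc1l1, Abcg5, Abcg8, Soat2, Scarb1, Nr1h3 and Abca1 in both groups, with Scarb1 at 56.1 and 33.9 FPKM.

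Summed FPKM of the 7 genes lay between 804 and 810 in control and between 425 and 460 with MMK-1, a fall of the mean to 54.3%. Within this sum the share of Npc1l1 went from 30.2% to 26.1%, whereas that of Abcg5 went from 26.7% to 27.4% and that of Abcg8 from 15.2% to 14.7%. Scarb1 went from 14.3% to 15.9%, Soat2 from 10.7% to 11.9%, Nr1h3 from 2.20% to 2.71% and Abca1 from 0.724% to 1.29%. These shares rest on the same lengths and add to a whole, so a gene that falls less than the sum takes a larger share.

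**Figure D3:**
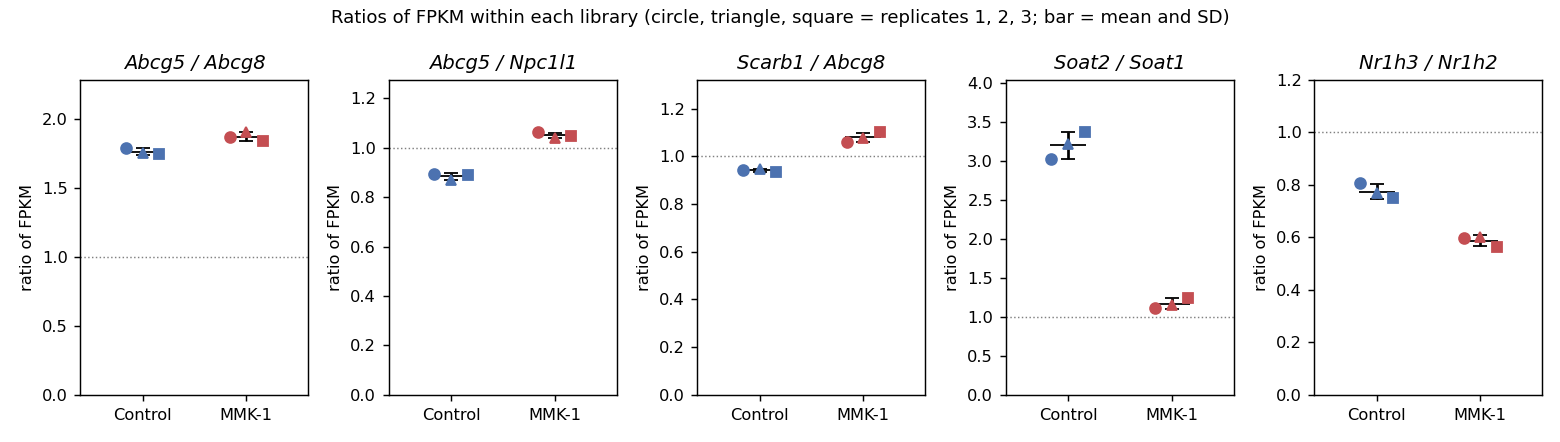
Ratios of FPKM between 5 pairs of genes in each of the 6 libraries, on axes from 0 with a dotted line at 1, with 1 point per library and bars for the mean and SD. The Abcg5 to Abcg8 ratio moved from 1.76 to 1.87 on average, whereas Soat2 to Soat1 moved from 3.21 to 1.17.

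Markers of enterocytes, the cells that express most of these genes, moved with the treatment as well. Of 12 enterocyte markers, 11 fell and 1 rose, with a median log2 fold change of -1.08, and their summed FPKM was 9945 to 10081 in control and 5680 to 6099 with MMK-1. All 12 were detected, the most abundant being Fabp1, a cytosolic fatty acid binding protein, at 2218 and 2506 FPKM on average. It was the 1 marker that rose. Its call was lost with upper-quartile scaling, with every gene above 0 tested and with the GC trend removed. All 6 stem cell markers rose, with summed FPKM of 66.0 to 67.7 in control and 381 to 409 with MMK-1, and all 6 Paneth cell markers rose (392 to 434 against 1275 to 1403). Among goblet cell markers 5 rose and 1 fell (1511 to 1646 against 1877 to 2049), but 3 rose and 1 fell with upper-quartile scaling or with the GC trend removed. Of 6 enteroendocrine markers 5 rose and none fell (302 to 319 against 435 to 443). Pan-epithelial markers were 1 higher and 4 lower of 6, and 0 higher and 5 lower with upper-quartile scaling. Vil1 (log2 fold change -1.21), which was among those lower, also stands among the enterocyte markers. Epcam was at 392 ± 1.79 and 391 ± 20.9 FPKM and was not called, although it was called lower with upper-quartile scaling (-0.12) and with the GC trend removed. The part of these shifts in the falls of the sterol genes was not tested, and in such bulk samples fewer cells of a type and less RNA per cell cannot be told apart.

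Other cell types left few traces. Tuft cell markers summed to 1.36 to 1.67 FPKM in control and 1.28 to 1.76 with MMK-1, and fibroblast and muscle markers to at most 0.165 FPKM in any library. Macrophage and leukocyte markers, of which 7 of 8 were listed and 2 tested, both lower, summed to 6.19 to 6.73 and 2.46 to 3.28 FPKM, mostly from Cd68 and Itgam. Ptprc, which marks all leukocytes, was below 0.01 FPKM on average in both groups, and Adgre1 was listed at 0 in every control library. Endothelial markers summed to 3.63 to 4.42 and 7.88 to 8.09 FPKM, nearly all from Lyve1, while Kdr was listed at 0.

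The pathway lists describe what surrounded the 7 genes. Of 6 LXR partners and corepressors, 3 rose and 2 fell, with a median log2 fold change of 0.17. Rxra, which encodes an RXR, fell from 26.8 to 23.5 FPKM (log2 fold change -0.18), and the corepressor gene Ncor1 rose from 18.9 ± 0.613 to 26.6 ± 0.286 FPKM (0.47). With upper-quartile scaling 2 of this list rose and 2 fell.

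Of 11 other LXR target genes, 6 passed the filter on mean FPKM, and of these 2 rose and 3 fell (median -0.09). Lpcat3, which puts polyunsaturated chains into phospholipids, fell from 337 ± 0.617 to 189 ± 4.57 FPKM, a log2 fold change of -0.83 and thus close to that of Abcg5. Smpdl3a, a phosphodiesterase, fell by 0.73 on the log2 scale. Scd1, a stearoyl-CoA desaturase, rose from 208 ± 2.76 to 291 ± 5.59 FPKM (0.48), and its paralog Scd2 rose by 0.18, a call lost with upper-quartile scaling. Among the genes of both sets that LXR is known to activate, some were thus higher, some lower and some, such as Abca1, not called.

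NPC1L1 is carried into the cell in flotillin-rich vesicles and returned to the brush border by a RAB11 and MYO5B route. Of 7 tested genes of this machinery 3 rose and 3 fell (median 0.03, and -0.09 with upper-quartile scaling), although the fall of Cdc42 (-0.10) was not called in 7 of the 14 alternatives. The flotillin genes Flot1 and Flot2 rose from 13.8 ± 0.85 to 21.0 ± 0.836 FPKM and from 1.97 ± 0.0352 to 3.22 ± 0.316 FPKM. Myo5b fell from 37.7 ± 0.281 to 26.9 ± 1.17 FPKM and Numb, a clathrin adaptor, from 17.7 to 15.2 FPKM. Rab11a was at 41.9 and 42.8 FPKM and was not called, although it was called lower with the GC trend removed (-0.25) and higher without MMK-1 replicate 3 (0.11).

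Of 9 tested genes of intracellular sterol transfer, 2 rose and 3 fell (median -0.06), while 6 fell with upper-quartile scaling, and the call of 1 of the 3 that fell was lost without control replicate 2, control replicate 3 or MMK-1 replicate 1. Gramd1b, whose product moves cholesterol from the plasma membrane to the endoplasmic reticulum, went from 1.95 ± 0.0287 to 0.575 ± 0.0452 FPKM (log2 fold change -0.91), and Gramd1c, of the same family, fell by 0.52 on the log2 scale. Npc1, the lysosomal cholesterol exporter, rose from 3.99 ± 0.34 to 5.47 ± 0.135 FPKM (0.38). Osbpl9 rose by 0.20, a call that was lost with upper-quartile scaling and with the GC trend removed.

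Of 7 other enzymes of cholesterol ester and lipid ester metabolism, 2 rose and 5 fell, with a median of -0.71. Mogat2, which re-esterifies absorbed monoacylglycerol, fell from 222 ± 1.2 to 83.7 ± 3.96 FPKM (-1.40), and Lipe, hormone-sensitive lipase, from 15.4 to 7.16 FPKM (-1.01). The genes that rose were Soat1 and Nceh1, a neutral cholesterol ester hydrolase (0.33, not called with the GC trend removed). Of 8 chylomicron assembly genes 7 fell (median -0.61), and 4 of the 8 also stand among the enterocyte markers. Those that fell included Apoa1 (-2.62) and Apoc3 (-2.12), both apolipoproteins, while Plagl2, a transcription factor needed for chylomicron release, rose by 0.51. Of 8 genes for other scavenger receptors, other ABC transporters and an adaptor protein, 3 rose and 5 fell (median -0.27). The fall of Abca2 (-0.18) was not called in 7 of the 14 alternatives. Cd36, a fatty acid translocase, fell from 2.54 to 0.564 FPKM (-1.18) and Abcb1a, a multidrug exporter, from 217 ± 7.34 to 119 ± 2.21 FPKM (-0.86). Abca7, a paralog of Abca1, rose from 3.93 ± 0.16 to 8.74 ± 0.77 FPKM (0.98), and Abcc1 rose by 0.63.

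Regulators of these transporters were split. Of 11 transcription factors 3 rose, 3 fell and 5 were not called (median 0.07). With upper-quartile scaling 2 rose and 3 fell (median -0.05), and with the GC trend removed 3 rose and 4 fell. Ppara, Nr1h4 (the bile acid receptor FXR) and Nr1i2 (the xenobiotic receptor PXR) fell, Ppara with a log2 fold change of -0.78 and Nr1h4 from 27.1 ± 0.613 to 16.4 ± 0.661 FPKM. Cdx2, an intestinal identity factor, rose by 0.30 and Srebf2, which encodes SREBP2, by 0.28. Hnf4a was at 166 FPKM in control and 174 FPKM with MMK-1 and was not called, and its direction turned with upper-quartile scaling or the GC trend removed. Of 13 SREBP2 target genes, which rise when cell cholesterol is low, 8 rose and 2 fell (median 0.19), and with upper-quartile scaling 6 rose and 3 fell (median 0.07). Of all genes tested, 48.5% rose and 24.7% fell (median 0.13, and 0.03 with upper-quartile scaling). Idi1 (0.64) and Cyp51 (0.56), enzymes of cholesterol synthesis, rose, whereas Dhcr7 (-0.50), an enzyme of a late step, fell. Idi1 was at 70.4, 72.1 and 53.8 FPKM with MMK-1, so that replicate 3 was again apart, and its log2 fold change was 0.29 with the GC trend removed.

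**Figure D4:**
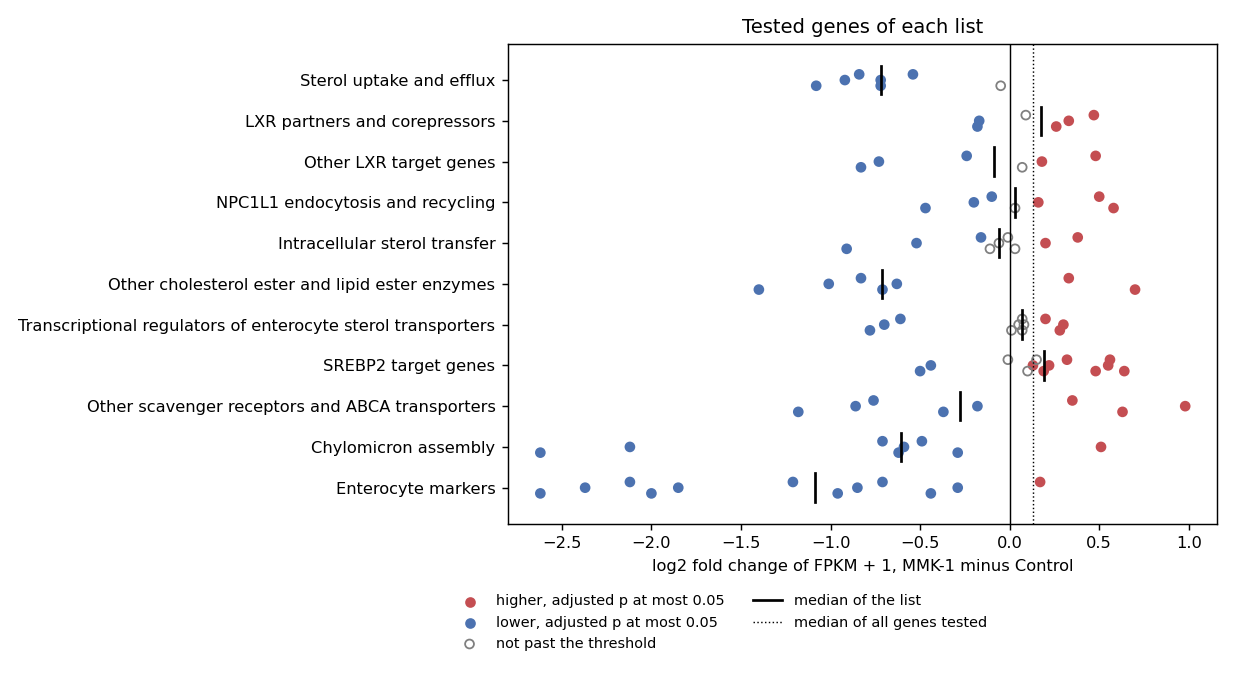
Log2 fold change (MMK-1 minus control) of each tested gene in the 7 sterol genes, 9 pathway lists and the enterocyte markers, on the values as deposited, with filled points for called genes (red higher, blue lower), open points for the rest and a line at each median. The 7 sterol genes centre at -0.72, near chylomicron assembly (-0.61) and the ester enzymes (-0.71). SREBP2 targets centre at 0.19 and all genes tested at 0.13 (0.07 and 0.03 with upper-quartile scaling). That scaling turns the medians of NPC1L1 endocytosis and of the transcriptional regulators below 0.

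The 3 tested genes whose profile over the 6 libraries was nearest to that of Npc1l1, by Euclidean distance of log2(FPKM + 1) from the control mean, were Naaladl1 (0.0412), Entpd8 (0.044) and Gucy2c (0.0522). Naaladl1, a peptidase, went from 295 ± 4.83 to 137 ± 6.38 FPKM. Of the other sterol genes, Abcg8 was nearest to Npc1l1 at 0.296, then Abcg5 at 0.43 and Scarb1 and Soat2 at 0.631, while Nr1h3 and Abca1 were at 0.944 and 1.82. No sterol gene rose, so no profile was sought for a rise.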

How the data were processed

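Per the labels and the methods, RNA of organoids was sequenced as 150-base paired-end reads in 3 control and 3 MMK-1 libraries. The authors deposited FPKM per gene, with no replicate pooling. Per the labels, their processing used HISAT2, HTSeq, DESeq2, R 3.2.0 and mm10, with no annotation named. Symbols and NCBI gene numbers were taken from the deposited table, and its pathway annotation columns were not used. FPKM values were whole multiples of 1 step per gene and library. From this, fragments were recovered for 20579 of the 20676 genes above 0 (99.53%, tolerance 0.02 fragments), where a common multiple across the 6 libraries would go unseen, and 721 genes were at 0 throughout. Fragment numbers and their error cover counting only.

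Tests used limma 3.58.1 in R 4.3.3 with an intensity trend on log2(FPKM + 1), over genes whose mean FPKM reached 1, with no block. Coordinates are from GENCODE vM21 on GRCm38, promoters from RefSeq on GRCm38.p6. Python 3.11.15, numpy 2.4.6, pandas 2.3.3 and matplotlib 3.10.9 were used for the rest. Scripts were tested on simulated data.

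The 7 genes and all lists were chosen with earlier results of these data known. Genes named were the 7, Nr1h2 and Soat1, in each pathway list the 2 called genes that changed most in either direction, the 3 nearest to the largest fall, and the highest and absent markers. Genes named beyond this rule (Nr1i2, Hnf4a, Rab11a, Epcam, Vil1, Ptprc, Abca2, Cdc42, Pltp, Mylip, Arl4c, Abcg1, Lpl) were chosen after their values were seen. The FPR family was not analysed here, and some genes that the rule selects are not reported here. Alternatives were upper-quartile scaling, TPM, a minimum mean FPKM of 0.5 or any value above 0, a pseudocount of 0.1, limma-voom on fragments, a replicate block, removal of the GC trend (span 0.3, GC known for 96.3% of genes tested) and leaving out each library.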

Additional observations from a re-analysis of the deposited data

How the results depend on the processing

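All 14 alternatives left Npc1l1 (-1.20 to -1.06), Abcg5 (-0.96 to -0.81), Abcg8 (-1.04 to -0.90), Scarb1 (-0.84 to -0.69), Soat2 (-0.84 to -0.69) and Nr1h3 (-0.65 to -0.52) lower and called, with limma adjusted p of at most 0.00015. Abca1 was not called under any (-0.17 to 0.03, limma adjusted p 0.0751 to 0.763), and it turned to 0.03 without MMK-1 replicate 3, the range over single libraries left out being -0.09 to 0.03. With upper-quartile scaling 2 of the 7 genes, Npc1l1 and Abcg8, were lower at a fold change of 2, against 1 as deposited. All genes higher at that fold change numbered 358 as deposited, 630 with TPM, 676 with a pseudocount of 0.1, 727 with limma-voom and 218 with the GC trend removed, and genes lower at the adjusted p rose from 2606 to 4002 with the GC trend removed. The cause was not tested.

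Replicate numbers did not pair the libraries, since deviations of same-numbered libraries correlated at 0.0253, -0.04 and 0.0279 and 2 of 6 libraries correlated best with their own number. A replicate block gave 5024 genes higher and 2543 lower and the same 6 sterol genes lower, with Npc1l1 at -1.08. Medians of the pathway lists moved beyond the spread between replicates in 24 cases. Ratios between genes moved with GENCODE exon lengths, an alternative chosen after seeing the data, while their fold change between groups, in which length cancels, did not. Log2 fold changes of other named genes that kept their call in all alternatives but moved by over 1.5 times in at least 1 ranged from -0.29 to -0.16 for Rxra, -0.32 to -0.18 for Numb, 0.24 to 0.46 for Npc1, 0.16 to 0.31 for Srebf2, 0.19 to 0.33 for Cdx2 and 0.29 to 0.77 for Idi1. The same held for Gramd1b (-1.77 to -0.89), Cd36 (-2.17 to -1.14), Cd68 (-1.49 to -0.89) and Itgam (-1.33 to -0.76).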

Other observations

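Of the 11 other LXR target genes, 5 were below the filter on mean FPKM. Without that filter, Pltp, a phospholipid transfer protein, had 37, 43 and 41 fragments in control and 3, 8 and 10 with MMK-1 (limma adjusted p = 0.00024). Mylip, a ubiquitin ligase for the LDL receptor, had 120, 96 and 124 fragments in control and 61, 48 and 81 with MMK-1 (limma adjusted p = 0.018). Arl4c, a small GTPase, went the other way, with 2, 5 and 4 fragments in control and 27, 18 and 18 with MMK-1 (limma adjusted p = 0.0037). Abcg1, a cholesterol exporter of macrophages, had 4 to 17 fragments in control and 6 to 9 with MMK-1 and was not called (limma adjusted p = 0.62), and Lpl had 3, 0 and 0 fragments in control and 3, 1 and 1 with MMK-1, too few for a comparison. These 5 genes were chosen after their values were seen.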
